A study of Mus musculus with 48 samples.

Results

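Messenger RNA of 10 genes of the calcium/calmodulin-dependent protein kinase (CaMK) and calcineurin signalling branch was described across 16 sorted populations of mouse hippocampal neurons, with 3 libraries in each and 48 in all. The members were chosen by name from the 37620 genes of the count table, and each symbol matched 1 gene identifier, so all 10 were found and all passed the filter on low counts in every comparison. They are the 4 CaMKII subunits (Camk2a, ENSMUSG00000024617; Camk2b, ENSMUSG00000057897; Camk2d, ENSMUSG00000053819; Camk2g, ENSMUSG00000021820), the nuclear kinase Camk4 (ENSMUSG00000038128) and its activating kinase Camkk2 (ENSMUSG00000029471). The others are the calmodulin-binding protein Nrgn (ENSMUSG00000053310), the calcineurin catalytic subunits Ppp3ca (ENSMUSG00000028161) and Ppp3cb (ENSMUSG00000021816), and the anchoring protein Akap5 (ENSMUSG00000021057).

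The neurons were fluorescent cells picked by hand from microdissected slices, and their RNA was amplified before sequencing. The 10 populations of CA1 pyramidal cells were taken at the dorsal, intermediate and ventral positions of the long axis, at the proximal and distal ends of the transverse axis, in the superficial and deep parts of the cell layer, or as cells labelled from a projection target (postsubiculum, amygdala or nucleus accumbens). CA3 pyramidal cells and granule cells of the dentate gyrus (DG) were each sampled at the dorsal and the ventral pole, and interneurons were sorted as somatostatin (SST) or parvalbumin (PV) cells. The labels give no treatment. The design text calls the 3 libraries of a population biological replicates, but how many animals went into a library, and the strain, age and reporter, are not given in the sources used here, so the p-values measure the spread between these libraries. Each library held between 5116568 and 31984948 reads assigned to genes. Mitochondrial genes took 8.27 to 24.5% of them.

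As background, calcium that enters a spine through NMDA receptors binds calmodulin, and calcium/calmodulin switches on opposing enzymes. CaMKII, a holoenzyme of alpha, beta, gamma and delta subunits, phosphorylates AMPA receptors and is required for long-term potentiation, whereas calcineurin, a phosphatase with a catalytic A and a regulatory B subunit, drives long-term depression and dephosphorylates NFAT. Neurogranin, the product of Nrgn, holds calmodulin at low calcium. CaMKK2 activates CaMKIV, which phosphorylates CREB in the nucleus, and AKAP5 tethers calcineurin and protein kinase A at the postsynaptic membrane.

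The labels were first set against cell-type markers. The summed level of 3 excitatory markers (Slc17a7 among them) was between 566 and 2990 CPM, the reads of a gene scaled to library size, in every library of the 14 excitatory populations, 22.6 to 72.5 CPM in SST cells and 1.91 to 2.93 CPM in PV cells. The summed level of 5 GABAergic markers was 9764 to 12099 CPM in SST cells and 5245 to 5852 CPM in PV cells. The same markers were also read in all 3 deep CA1 libraries (267 to 685 CPM) and in single proximal, superficial and accumbens-projecting libraries (up to 205, 143 and 579 CPM). These values are given again beside the results that use those libraries. Of the CA1 markers, Fibcd1 was 51.4 to 722 CPM in the CA1 libraries and at most 10.8 CPM in the CA3 and DG libraries, and Mpped1 was 103 to 336 CPM in CA1 and at most 2.18 CPM in CA3 and DG. Wfs1 ran from 8.70 CPM in an accumbens-projecting library to 1749 CPM in a proximal CA1 library and reached 87.6 CPM in dorsal DG, so that for this gene the CA1 libraries overlapped those of CA3 and DG. There was no read of Pou3f1 in any population. The 3 granule-cell markers, Prox1 among them, reached 1431 to 1968 CPM in dorsal and 1415 to 1603 CPM in ventral DG, and the 3 CA3 markers 223 to 257 CPM in dorsal and 106 to 117 CPM in ventral CA3, above every library of the other populations.

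All 10 genes differed among the 16 populations (edgeR quasi-likelihood test over the 48 libraries, each adjusted p at or below 8.44e-06). In the same test 65.3% of the 17918 genes tested passed the threshold of adjusted p under 0.05, so a call there is the common outcome. What set the members apart from each other was the size and the place of their differences. From the highest to the lowest population mean, Nrgn spanned 766-fold, Camk2d 108-fold, Ppp3ca 19.0-fold, Camk2a 17.7-fold, Camk4 14.2-fold and Camk2b 11.1-fold. Camkk2 spanned 8.87-fold, Ppp3cb 4.70-fold, Camk2g 4.65-fold and Akap5 4.23-fold. These are ratios of mean CPM, and in sorted bulk samples fewer cells of a type and less RNA per cell cannot be told apart.

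**Figure D1:**
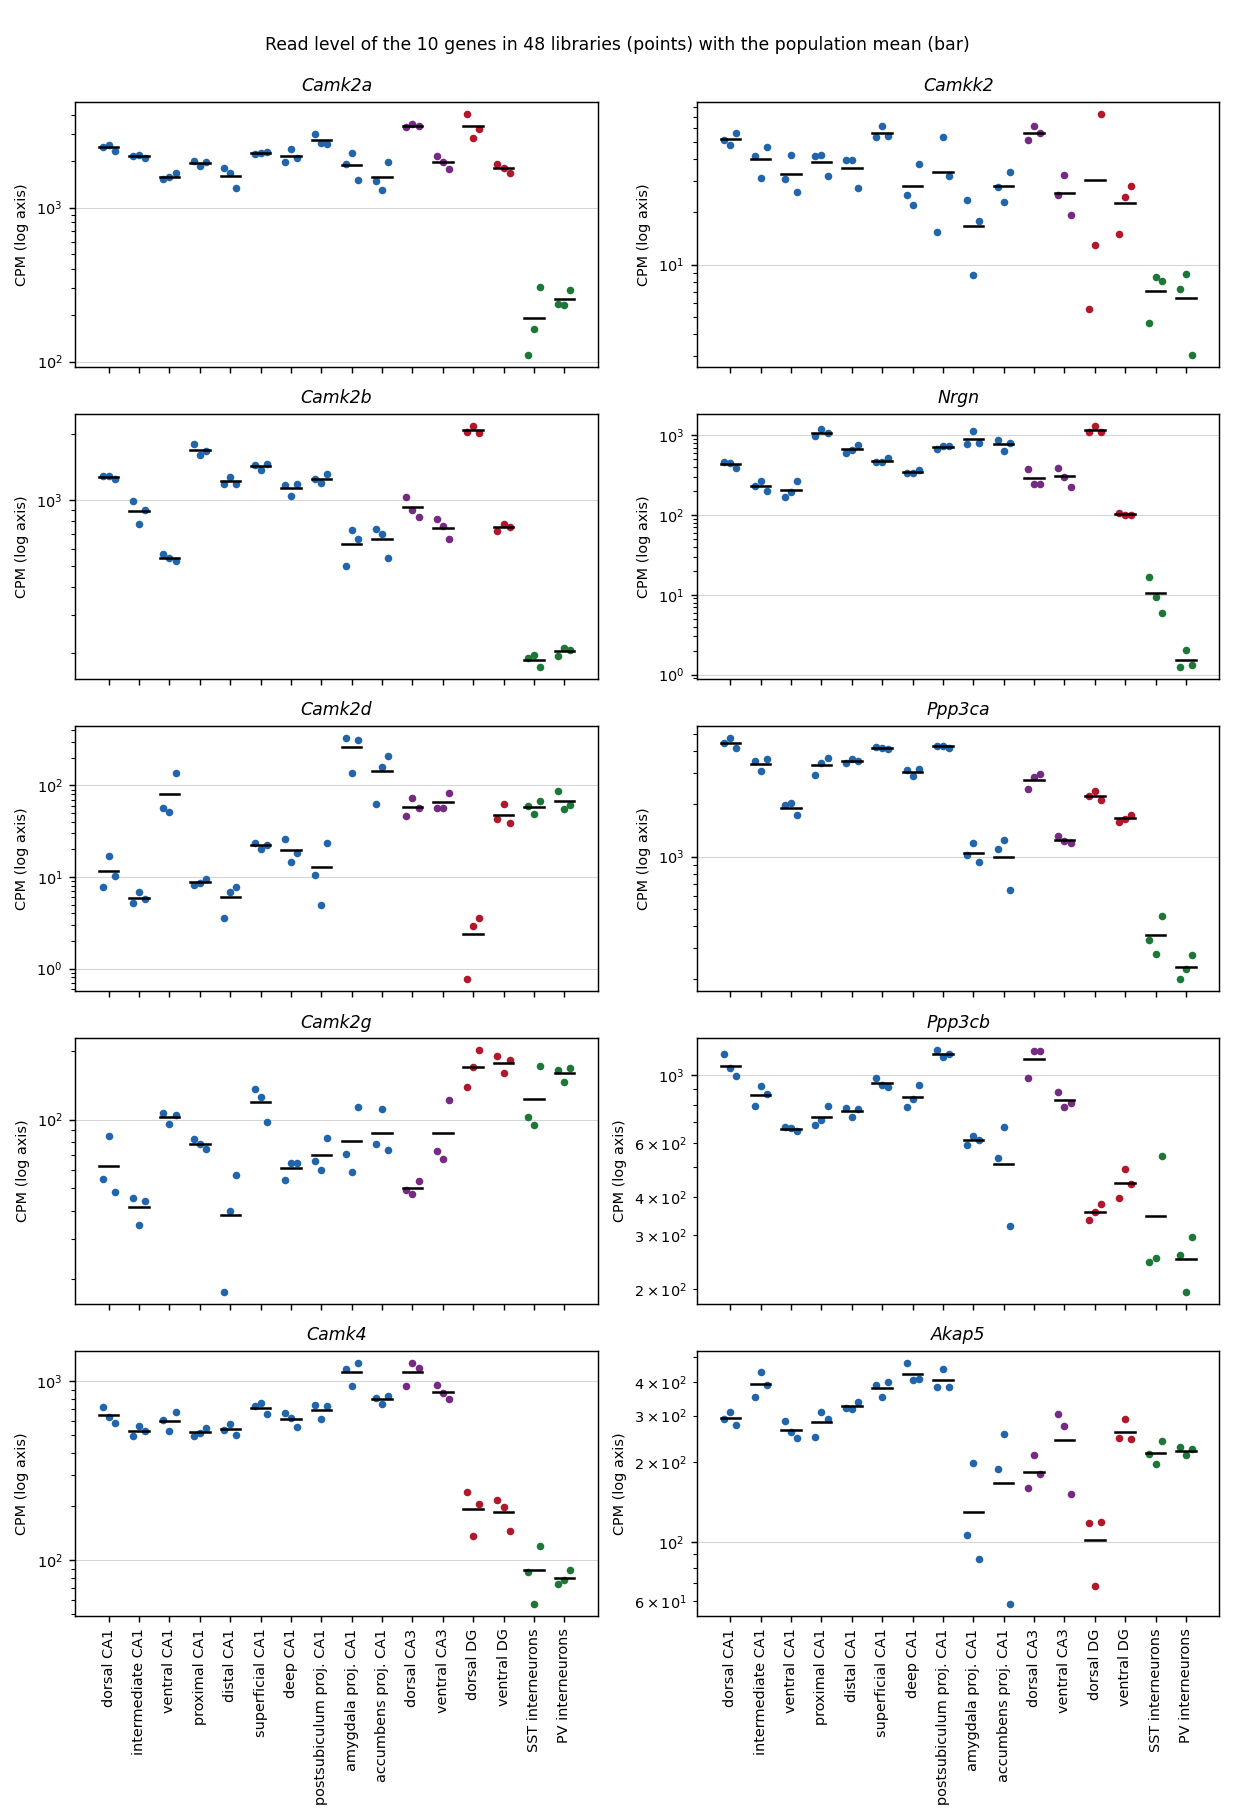
CPM (log axis) of the 10 genes in each of the 48 libraries, grouped by population; points are libraries, the bar is the population mean, and colours mark CA1, CA3, DG and interneurons. Camk2a, Camk2b, Camk4, Camkk2, Nrgn and Ppp3ca have their lowest means in the interneurons, whereas Camk2d is lowest in dorsal DG, Camk2g in distal CA1 and Akap5 in dorsal DG.

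Camk2a, the alpha subunit typical of forebrain excitatory neurons, was highest in dorsal CA3, with 3348, 3491 and 3384 CPM in the 3 libraries, and in dorsal DG, with 4057, 2818 and 3243 CPM. Its order then ran from postsubiculum-projecting CA1 (2733 ± 234 CPM, SD, n = 3) down to ventral CA1 (1588 ± 74.8), and 12 of its 15 neighbouring pairs in that order overlapped. The interneurons stood apart at the bottom, with 236, 234 and 292 CPM in PV and 110.5, 163 and 304 CPM in SST cells. Camk2b, the actin-binding beta subunit, had another order: dorsal DG came first (2078 ± 83.6 CPM), proximal CA1 next (1695 ± 101) and ventral CA1 last among the excitatory populations (547 ± 21.5). Its 6 non-overlapping neighbour pairs were more than the 3 of Camk2a.

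Camk2d, the delta subunit best known from heart, was the most uneven CaMKII gene. It was read at 327, 138 and 315 CPM in amygdala-projecting CA1, at 63.2, 159 and 208 CPM in accumbens-projecting CA1 and at 56.2, 50.9 and 136 CPM in ventral CA1. By CPM it was lowest in the dorsal DG, at 0.763, 2.90 and 3.57 CPM, and intermediate CA1 had 5.13, 6.84 and 5.72 CPM. Its libraries also varied more within a population, with a median coefficient of variation of 27.8% over populations against 5.41% for Camk2b. Camk2g, the gamma subunit, which carries calcium/calmodulin from the membrane to the nucleus in excitatory neurons, was highest in ventral DG (177 ± 15.0 CPM), dorsal DG (169.8 ± 30.9) and PV cells (160.0 ± 11.4), and lowest in distal CA1 (38.2 ± 19.7). It overlapped between 13 of 15 neighbours.

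Camk4 had its highest means in CA3 and in 2 of the 3 projection groups, with 947, 1265 and 1194 CPM in dorsal CA3, 1173, 948 and 1272 CPM in amygdala-projecting CA1 and 957, 864 and 798 CPM in ventral CA3. Accumbens-projecting cells had 809, 746 and 828 CPM, and postsubiculum-projecting cells, at 695 CPM, lay among the other CA1 populations. The CA1 positions lay between 521 (proximal) and 713 CPM (superficial), and both DG populations were far lower, at 239.6, 137 and 206 CPM dorsally and 217, 199 and 145 CPM ventrally. The interneurons were lowest (87.8 ± 31.6 CPM in SST and 80.0 ± 7.40 CPM in PV cells). Exons of Camk4 overlap the opposite-strand gene 2310026I22Rik, and whether the counting used strand is not given in the sources used here, so reads of the pair may be mixed. Camkk2, its upstream kinase, was low everywhere, from 56.7 ± 5.08 CPM in dorsal CA3 to 6.40 ± 3.02 CPM in PV cells. One library alone could carry a Camkk2 mean: dorsal DG had 5.59, 13.0 and 72.6 CPM.

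Nrgn followed no single axis. It was highest in dorsal DG (1102, 1309.7 and 1099.8 CPM), proximal CA1 (969.9, 1209 and 1063 CPM) and amygdala-projecting CA1 (771, 1135 and 795 CPM). Ventral DG, the same cell class at the other end of the long axis, had 105, 101 and 101 CPM, and ventral CA1 had 168, 194 and 266 CPM. The interneurons were at the floor of the range, with 16.6, 9.39 and 5.995 CPM in SST and 1.24, 2.04 and 1.30 CPM in PV cells.

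Ppp3ca and Ppp3cb encode the alpha and beta forms of calcineurin A. Ppp3ca was highest in dorsal CA1 (4443, 4736 and 4169.9 CPM), postsubiculum-projecting CA1 (4301, 4269.8 and 4186 CPM) and superficial CA1 (4236, 4184 and 4111 CPM). It was the most finely graded member, with 8 of 15 neighbouring pairs that did not overlap, and its lowest excitatory means were 1050.2 ± 133 CPM in cells projecting to the amygdala and 1002 ± 317 CPM in those projecting to the accumbens. Ppp3cb ran from 1173 ± 28.9 CPM in postsubiculum-projecting CA1 to 249.8 ± 49.8 CPM in PV cells, with both DG populations (443 and 358 CPM) next to the interneurons. Akap5 was the flattest member: deep CA1 had 475, 409 and 411 CPM, and dorsal DG, the lowest, had 118, 68.3 and 119 CPM. PV and SST cells, at 221 and 217 CPM, lay inside the range of the excitatory populations.

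Levels of different genes can be set side by side only per transcript length, so the make-up of the CaMKII and calcineurin A families was taken from the deposited FPKM values (fragments per kilobase of transcript, scaled to library depth). Camk2a was over 50% of the CaMKII FPKM in 9 of the 16 populations. Its share was highest in dorsal CA3 (65.0% ± 2.75, SD, n = 3) and lowest among excitatory cells in proximal CA1 (39.4% ± 1.64), where Camk2b had the larger share (58.3% ± 1.79). Camk2b also had the larger mean share in distal CA1 (53.7%) and superficial CA1 (51.9%). In dorsal DG the shares of Camk2b (49.8% ± 7.90) and Camk2a (47.0% ± 8.31) lay within each other's SD.

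The interneurons had a different CaMKII make-up. Camk2g made up 19.3% ± 2.04 of the CaMKII FPKM in SST cells and 23.0% ± 0.471 in PV cells, and Camk2d 11.7% ± 2.98 and 11.3% ± 4.58. In excitatory populations the highest Camk2g share was 6.38% ± 0.547 in ventral DG. Camk2d reached 10.9% ± 6.21 in amygdala-projecting and 6.56% ± 4.88 in accumbens-projecting CA1, and 3.74% ± 1.91 in ventral CA1. The summed CaMKII level was 1811 ± 43.7 FPKM in dorsal DG and 1109 ± 27.1 in dorsal CA1, against 189 ± 50.9 in SST and 211 ± 20.6 in PV cells.

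Within calcineurin A, Ppp3ca made up 86.6% ± 0.925 of the FPKM in dorsal DG and 82.0% ± 1.68 in dorsal CA1. The share was 76.3% ± 2.07 in ventral CA1, 62.0% ± 3.04 in amygdala-projecting and 64.3% ± 3.28 in accumbens-projecting CA1, and 61.4% ± 0.947 in ventral CA3. In PV cells Ppp3cb had the larger mean share, 53.2% ± 4.03. These shares are descriptions and were not tested.

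**Figure D2:**
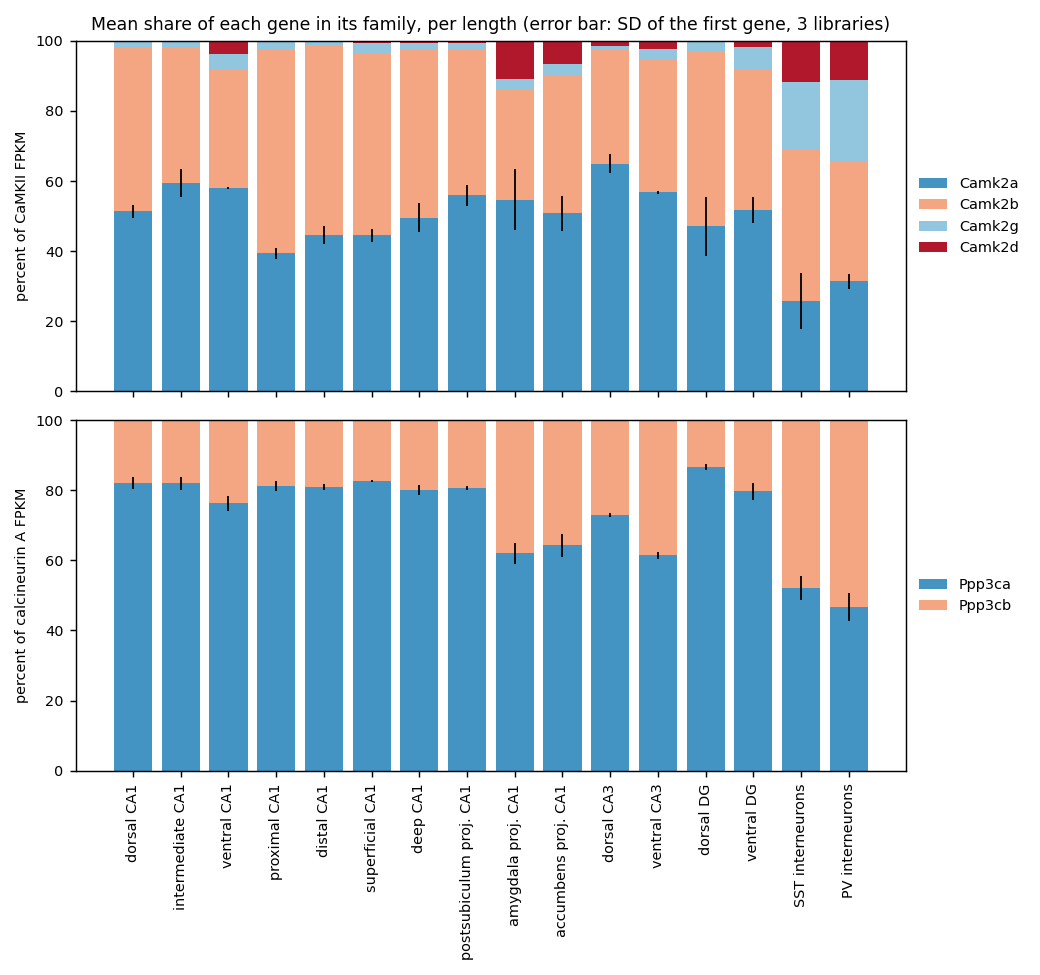
Mean share (percent of summed FPKM) of the 4 CaMKII genes and of the calcineurin A genes in each population, n = 3 libraries each; the error bar is the SD of the first gene's share. Camk2a spans 25.8% in SST cells to 65.0% in dorsal CA3, and Ppp3ca 46.8% in PV cells to 86.6% in dorsal DG.

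Along the long axis of CA1, the abundant CaMKII subunits, both calcineurin A genes and Nrgn were higher dorsally, and the minor CaMKII subunits were higher ventrally. In dorsal against ventral CA1, 7 of the 10 genes passed the test, 5 higher and 2 lower in dorsal cells, where 15.1% of 12149 genes passed in either direction (7.17% higher and 7.95% lower in dorsal). The median log2 difference of the members was 0.59, against -0.00747 over all genes tested. Mitochondrial genes took 9.41 to 9.73% of reads in dorsal and 11.3 to 12.9% in ventral CA1. Oligodendrocyte markers were at 13.8 to 27.1 and 48.6 to 67.1 CPM, and interneuron markers at 0 to 1.398 and 15.0 to 21.3 CPM. ERCC spike-ins came to 0.511 to 1.01% of a library in dorsal, 2.18 to 4.55% in intermediate and 2.72 to 8.29% in ventral CA1. Every dorsal library held more reads assigned to genes than any intermediate or ventral one. The part of these in the long-axis differences was not tested.

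Camk2a was 2485, 2563 and 2341 CPM in dorsal and 1522, 1572 and 1669 CPM in ventral CA1, so every dorsal library lay above every ventral one (log2 difference 0.57 ± 0.068, adjusted p = 5.88e-06; differences are ± SE from the edgeR fit, on the log2 scale). Camk2b had the larger difference: 1292, 1288 and 1250.0 CPM in dorsal, 986, 780.4 and 901 CPM in intermediate and 568, 547 and 525 CPM in ventral CA1. No pair of the 3 positions overlapped for Camk2b. It was 2.24-fold higher in dorsal than in ventral cells (log2 difference 1.16 ± 0.093, adjusted p = 5.09e-08), and both steps of the gradient passed (0.48 ± 0.092 from intermediate to dorsal, adjusted p = 0.00353, and 0.68 ± 0.093 from ventral to intermediate, adjusted p = 0.000139).

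Camk2d went the other way, with 7.74, 17.0 and 10.3 CPM in dorsal against 56.2, 50.9 and 136 CPM in ventral CA1, 7.21-fold lower in dorsal cells (log2 difference -2.85 ± 0.36, adjusted p = 1.21e-05). The ventral libraries were spread, and replicate 3 was the highest; without it the log2 difference was -2.26 and still passed. Intermediate cells were lower still than ventral ones, by 13.8-fold (log2 difference -3.79 ± 0.39, adjusted p = 7.36e-06). Camk2g was 55.0, 84.6 and 48.1 CPM in dorsal, 45.5, 34.7 and 43.9 CPM in intermediate and 107, 95.9 and 105 CPM in ventral CA1. It was lower than ventral in both (dorsal -0.78 ± 0.20, adjusted p = 0.0109; intermediate -1.33 ± 0.21, adjusted p = 0.000469), but the dorsal call was lost without dorsal replicate 1 or 3 (adjusted p 0.00204 to 0.0708 over the 6 libraries left out in turn, 0.00171 to 0.190 over all alternatives).

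Ppp3ca fell stepwise from 4443, 4736 and 4169.9 CPM in dorsal through 3516, 3074 and 3589.5 CPM in intermediate to 1963, 2016 and 1737 CPM in ventral CA1. No pair of positions overlapped, and the dorsal level was 2.24-fold the ventral one (log2 difference 1.16 ± 0.081, adjusted p = 1.09e-08). The step from intermediate to dorsal (0.35 ± 0.08, adjusted p = 0.0136) was lost without dorsal replicate 1 or 2 or intermediate replicate 2 (adjusted p 0.0138 to 0.0956 with 1 library left out, 0.000537 to 0.439 over all alternatives). Ppp3cb changed less, from 1074 ± 91.0 CPM dorsally to 667 ± 10.5 CPM ventrally (log2 difference 0.63 ± 0.086, adjusted p = 3.09e-05). Its step from ventral to intermediate (0.35 ± 0.086, adjusted p = 0.0206) was lost without any of 4 libraries (intermediate replicates 2 and 3, ventral replicates 2 and 3; adjusted p 0.0188 to 0.0819 with 1 library left out, 0.0105 to 0.775 over all alternatives).

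Nrgn was 463, 457 and 386 CPM in dorsal, 233, 269 and 199.9 CPM in intermediate and 168, 194 and 266 CPM in ventral CA1. The step lay between dorsal and intermediate cells (log2 difference 0.85 ± 0.15, adjusted p = 0.00127), and intermediate and ventral libraries overlapped (log2 difference 0.14 ± 0.15, adjusted p = 0.690). Akap5 had its peak in the middle: 352, 437 and 391 CPM in intermediate cells against 292, 308 and 277 CPM in dorsal and 287, 259.9 and 248 CPM in ventral cells. It was higher in intermediate than in ventral cells (log2 difference 0.55 ± 0.11, adjusted p = 0.00402) and lower in dorsal than in intermediate cells (log2 difference -0.47 ± 0.11, adjusted p = 0.0136). The first call held with any 1 library left out and was lost in 1 fit of all 48 libraries (adjusted p = 0.760, between 0.000165 and 0.760 over all alternatives). The second was lost without dorsal replicate 1 or 3 or intermediate replicate 2 (adjusted p 0.00989 to 0.0951, and 0.00134 to 0.822 over all alternatives). Camk4 (647 ± 68.1 and 604 ± 72.7 CPM, log2 difference 0.038 ± 0.10, adjusted p = 0.875) and Camkk2 (52.3 ± 4.17 and 32.9 ± 8.25 CPM, log2 difference 0.61 ± 0.23, adjusted p = 0.0920) did not pass.

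Counted over the members, 4 of 10 passed between dorsal and intermediate CA1, 3 higher and 1 lower in dorsal cells, against 4.93% of 12149 genes (1.69% higher and 3.24% lower). Between intermediate and ventral CA1 it was 7 of 10, 5 higher and 2 lower in intermediate cells, against 5.03% of 12149 genes (3.12% higher and 1.91% lower). In the first, the median log2 difference was 0.35, and 0.008 over all genes tested, and in the second, the median log2 difference was 0.30, and -0.015 over all genes tested.

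The promoter windows of Nrgn, Camk2b and Camk2d are given because these are the genes whose long-axis difference in CA1 differed from that in CA3 in the test of that difference, with Camk2d opposite in sign to the others. The windows run from 250 bases before to 50 after the start of the gene and come from RefSeq on build GRCm38.p6, which is not the build of the deposited files. Of the 10 genes, 6 had a window there. Nrgn lies on the minus strand at chr9:37552696-37552995, Camk2b on the minus strand at chr11:6065699-6065998 and Camk2d on the plus strand at chr3:126596701-126597000. Capitals mark matches on either strand to any of the motifs searched: the GC box GGGCGG, the EGR-type site GCGNGGGCG, the NeuroD-type E-box CAGATG, the TATA box TATAAA and the CRE half-site TGACG.
Nrgn promoter: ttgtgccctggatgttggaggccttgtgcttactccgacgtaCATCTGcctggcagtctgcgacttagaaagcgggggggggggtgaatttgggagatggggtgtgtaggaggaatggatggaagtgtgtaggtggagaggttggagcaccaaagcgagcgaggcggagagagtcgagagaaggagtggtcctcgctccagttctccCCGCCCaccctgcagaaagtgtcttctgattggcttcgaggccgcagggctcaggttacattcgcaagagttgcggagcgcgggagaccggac
Camk2b promoter: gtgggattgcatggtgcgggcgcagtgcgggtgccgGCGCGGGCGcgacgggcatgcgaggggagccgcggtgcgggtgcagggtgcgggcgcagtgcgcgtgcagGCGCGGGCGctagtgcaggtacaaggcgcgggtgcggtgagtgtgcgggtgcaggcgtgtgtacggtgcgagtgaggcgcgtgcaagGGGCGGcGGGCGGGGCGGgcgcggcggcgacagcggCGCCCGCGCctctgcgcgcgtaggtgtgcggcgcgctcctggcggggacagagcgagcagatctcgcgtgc
Camk2d promoter: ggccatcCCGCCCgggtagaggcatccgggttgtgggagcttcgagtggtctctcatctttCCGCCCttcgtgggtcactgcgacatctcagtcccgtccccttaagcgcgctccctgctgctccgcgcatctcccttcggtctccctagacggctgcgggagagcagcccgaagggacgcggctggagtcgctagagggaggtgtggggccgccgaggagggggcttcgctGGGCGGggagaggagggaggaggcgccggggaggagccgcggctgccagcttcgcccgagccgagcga

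The Nrgn window held 1 E-box match, which 17.2% of all 32851 windows hold, and 1 GC box, which 35.7% hold. The Camk2b window held 3 EGR-type matches, a motif found in 5.55% of windows, and 3 GC boxes, of which the ones starting at -50 and -45 share a base. The Camk2d window held 3 GC boxes and none of the other motifs. TATAAA, in 13.6% of windows, and TGACG, in 20.8%, were in none of the 3 windows. A match describes letters in the window and says nothing of binding.

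In CA3, the calcineurin A genes and Camk2a were higher dorsally and Camk2g was lower. These were the 4 of 10 genes that passed, against 4.97% of 15549 genes (2.5% higher and 2.48% lower), and the median log2 difference was 0.35, and -0.04 over all genes tested. Ppp3ca was 2437, 2854 and 2945 CPM in dorsal and 1309, 1224 and 1204 CPM in ventral CA3 (log2 difference 1.15 ± 0.095, adjusted p = 9.28e-08), with no overlap. Camk2a was 3348, 3491 and 3384 against 2176, 1969.7 and 1791 CPM, again with no overlap (log2 difference 0.79 ± 0.11, adjusted p = 7.6e-05). Ppp3cb (0.45 ± 0.11, adjusted p = 0.0191) and Camk2g (-0.79 ± 0.23, adjusted p = 0.0471) passed as well. Each of these calls was lost without any of 4 of the 6 libraries (Ppp3cb without dorsal CA3 replicates 2 or 3 or ventral CA3 replicates 2 or 3, adjusted p 0.00790 to 0.114 and 0.00483 to 0.309 over all alternatives; Camk2g without dorsal CA3 replicates 1, 2 or 3 or ventral CA3 replicate 3, 0.0366 to 0.347 and 0.0160 to 0.347).

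In the dentate gyrus, Nrgn, Camk2b, Camk2a and Ppp3ca were higher dorsally, and Camk2d and Akap5 were lower. Of the 10 genes these 6 passed, against 19.4% of 15549 genes (8.71% higher and 10.6% lower), and the median log2 difference was 0.26, and -0.053 over all genes tested. Each of the 6 calls held with any 1 library left out. Camkk2 did not pass (log2 difference 0.45, adjusted p = 0.608), but without dorsal replicate 3, at 72.6 CPM, it was lower dorsally (-1.27, adjusted p = 0.0187). Nrgn had the largest rise of the 10, 11.6-fold (1102, 1309.7 and 1099.8 against 105, 101 and 101 CPM, log2 difference 3.53 ± 0.21, adjusted p = 8.11e-10). Camk2d had the largest difference the other way, 19.8-fold (0.763, 2.90 and 3.57 against 43.1, 62.0 and 38.7 CPM, log2 difference -4.30 ± 0.50, adjusted p = 4.61e-06). For both genes the dorsal and ventral libraries lay far apart in CPM. In the deposited FPKM values Camk2d differed less, at 3.10 ± 3.26 (SD) in dorsal and 14.8 ± 2.63 in ventral DG. By FPKM its lowest mean was in distal CA1 (1.77 ± 0.408). Camk2b was 2043, 2174 and 2019 CPM in dorsal and 722, 777 and 757 CPM in ventral DG, 2.80-fold higher dorsally (log2 difference 1.48 ± 0.10, adjusted p = 4.91e-09). Akap5 was lower dorsally by 2.53-fold, with 118, 68.3 and 119 CPM against 248, 291 and 244 CPM (log2 difference -1.34 ± 0.22, adjusted p = 0.000274). Camk2a (0.92 ± 0.11, adjusted p = 7.29e-06) and Ppp3ca (0.45 ± 0.094, adjusted p = 0.00211) were higher dorsally. Interneuron markers were read at 89.5 to 108 CPM in dorsal and 42.0 to 62.9 CPM in ventral DG. ERCC spike-ins came to 2.68 to 4.06% of a library in dorsal and 0.969 to 1.33% in ventral DG. Here every dorsal library held fewer reads assigned to genes than any ventral one. The part of these in the DG differences was not tested.

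The difference between regions was tested itself, as the dorsal-minus-ventral log2 difference in CA1 minus that in CA3 or DG, in one fit of the 18 dorsal and ventral libraries. Against CA3, 3 of 10 genes passed, 2 positive and 1 negative, against 3.52% of 15549 genes (1.31% positive and 2.21% negative): Camk2b (0.87 ± 0.14, adjusted p = 0.000469), Camk2d (-2.67 ± 0.59, adjusted p = 0.00940) and Nrgn (1.09 ± 0.27, adjusted p = 0.0250). Nrgn in CA3 was 379.9, 247 and 244 CPM dorsally and 389, 304 and 223 CPM ventrally, and Camk2d 45.9, 72.3 and 56.5 and 56.0, 56.2 and 83.2 CPM. For both, the CA3 groups overlapped where the CA1 groups did not. Camk2b was 1034, 905 and 836 CPM in dorsal and 821, 760 and 663 CPM in ventral CA3, with no overlap. Its difference within CA3 did not pass in edgeR (log2 difference 0.31, adjusted p = 0.0793) and passed with DESeq2 (adjusted p = 0.0388). The Nrgn call was lost without any of 8 of the 12 CA1 and CA3 libraries (dorsal CA1 replicates 1 or 2, ventral CA1 replicates 1 or 2, dorsal CA3 replicates 2 or 3 or ventral CA3 replicates 1 or 2; adjusted p 0.00455 to 0.101, and 0.00120 to 0.101 over all alternatives). The Camk2d call was lost without ventral CA1 replicate 3 (-2.08, adjusted p = 0.0552, with 0.000178 to 0.0552 over all alternatives).

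Against DG, 4 of 10 genes passed, 3 positive and 1 negative, against 9.71% of 15549 genes (5.09% positive and 4.62% negative). Nrgn had a steeper gradient in DG (-2.51 ± 0.28, adjusted p = 5.1e-06), Ppp3ca a steeper one in CA1 (0.74 ± 0.13, adjusted p = 0.00121), and Ppp3cb (0.94 ± 0.16, adjusted p = 0.000705) and Akap5 (1.44 ± 0.31, adjusted p = 0.00501) differed by a positive amount too. Ppp3cb was 337, 357 and 380.0 CPM in dorsal and 396, 492 and 439 CPM in ventral DG, against 1173, 1055 and 994 and 674, 672 and 655 CPM in CA1. Both interaction tests use the same CA1 libraries.

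**Figure D3:**
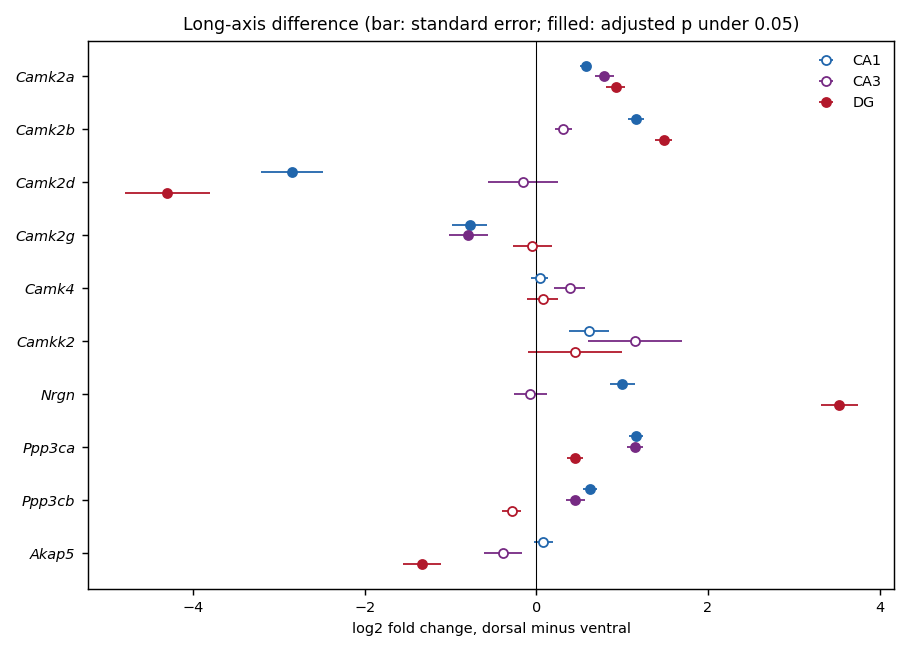
Log2 difference of dorsal minus ventral cells (edgeR; bars are SE) for the 10 genes in CA1, CA3 and DG, from 3 libraries a group; filled points have adjusted p under 0.05. Nrgn and Camk2d are at 3.53 and -4.30 in DG and near 0 in CA3 (-0.070 and -0.16), while Ppp3ca is at 1.16 in CA1, 1.15 in CA3 and 0.45 in DG.

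Along the transverse axis of CA1, Nrgn and Camk2b were higher in proximal cells. They were the 2 of 10 genes that passed, against 1.06% of 12710 genes (0.818% higher and 0.244% lower), and the median log2 difference was 0.21, and 0.0035 over all genes tested. Nrgn was 969.9, 1209 and 1063 CPM in proximal and 601, 653 and 768 CPM in distal CA1 (log2 difference 0.69 ± 0.12, adjusted p = 0.0221), and Camk2b 1807, 1610.2 and 1668 and 1180.4, 1279 and 1186 CPM (log2 difference 0.49 ± 0.088, adjusted p = 0.0229). Neither gene's groups overlapped. With 1 library left out the Camk2b call was lost in 6 of 6 cases (adjusted p 0.0599 to 0.129, and 0.000598 to 0.129 over all alternatives) and the Nrgn call in 4 of 6 (proximal CA1 replicates 2 or 3 or distal CA1 replicates 1 or 2; 0.0224 to 0.125, and 9.55e-05 to 0.172). One proximal library held interneuron markers at 205 CPM, and distal libraries 15.8 to 19.7 CPM. Without that library, proximal replicate 1, the log2 difference was 0.75 for Nrgn (adjusted p = 0.0324) and 0.43 for Camk2b (adjusted p = 0.0730).

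Across the cell layer, Ppp3ca and Camk2g were higher in superficial cells, 2 of 10 genes against 2.48% of 12533 genes (0.886% higher and 1.6% lower), and the median log2 difference was 0.22, and -0.027 over all genes tested. Ppp3ca was 4236, 4184 and 4111 CPM in superficial and 3106, 2897 and 3160.1 CPM in deep CA1 (log2 difference 0.40 ± 0.055, adjusted p = 0.00327). Camk2g was 137, 125 and 97.7 and 54.5, 64.6 and 64.3 CPM (log2 difference 0.91 ± 0.19, adjusted p = 0.0255), and neither gene's groups overlapped. The Ppp3ca call held with any 1 library left out and was lost in 1 fit of all 48 libraries (adjusted p = 0.219, between 2.37e-05 and 0.219 over all alternatives). The Camk2g call was lost without superficial replicate 1 or 2 or deep replicate 1 (adjusted p 0.0401 to 0.179, and 0.000233 to 0.179 over all alternatives). Nrgn (481 ± 32.7 against 349 ± 18.3 CPM, log2 difference 0.41 ± 0.10, adjusted p = 0.0513) and Camk2b (1425 ± 43.6 against 1132 ± 74.8 CPM, log2 difference 0.27 ± 0.073, adjusted p = 0.0792) missed the threshold. Interneuron markers were at 267 to 685 CPM in the deep and 15.3 to 143 CPM in the superficial libraries, and Camk2g itself was 160.0 CPM in PV cells. Without deep replicate 1 and superficial replicate 3, the libraries with most of these reads, a choice made after the values were seen, Ppp3ca passed (adjusted p = 0.0432) and Camk2g did not (log2 difference 0.97, adjusted p = 0.0814).

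Between amygdala-projecting and accumbens-projecting CA1, 0 of the 10 genes passed edgeR's test, and DESeq2 also called 0; 0.0231% of 12981 genes passed at all. At an unadjusted p under 0.05 there was 1, Camk4, at 1173, 948 and 1272 CPM in cells projecting to the amygdala and 809, 746 and 828 CPM in those projecting to the accumbens (log2 difference 0.49 ± 0.15, adjusted p = 0.367). The accumbens-projecting libraries were spread for several members, as for Ppp3ca (1109.8, 1250.1 and 645 CPM) and Akap5 (189, 255 and 58.6 CPM). The low library in both is replicate 3, which held interneuron markers at 579 CPM; their part in its values was not tested.

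Set against ventral CA1, both ventral projection groups had far more Nrgn and less Ppp3ca. In amygdala-projecting cells 3 of 10 genes passed, 2 higher and 1 lower, against 2.38% of 12981 genes (1.59% higher and 0.786% lower), and in accumbens-projecting cells 2 of 10, 1 higher and 1 lower, against 2.04% of 12981 genes (1.49% higher and 0.555% lower). The comparisons share the ventral CA1 libraries. In the first, the median log2 difference was 0.052, and 0.067 over all genes tested, and in the second, the median log2 difference was -0.081, and 0.11 over all genes tested. Nrgn was 168, 194 and 266 CPM in ventral CA1, 771, 1135 and 795 CPM in the amygdala group and 875, 642 and 802 CPM in the accumbens group. That is 4.34-fold higher in amygdala-projecting (log2 difference 2.12 ± 0.21, adjusted p = 5.63e-05) and 3.77-fold higher in accumbens-projecting cells (log2 difference 1.92 ± 0.21, adjusted p = 0.000175), and both calls held with any 1 library left out.

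Ppp3ca was 1028, 1192 and 930.0 CPM in amygdala-projecting cells, below every ventral library (log2 difference -0.85 ± 0.20, adjusted p = 0.0321), and in accumbens-projecting cells it was also lower than in ventral cells (log2 difference -0.90 ± 0.20, adjusted p = 0.0287). The first call was lost in 6 of 6 cases with 1 library left out (adjusted p 0.0552 to 0.159, and 6.74e-05 to 0.159 over all alternatives). The second was lost without ventral CA1 replicates 1, 2 or 3 or accumbens-projecting CA1 replicate 1 (adjusted p 0.00989 to 0.140, and 2.47e-05 to 0.140). Camk4 was 1.88-fold higher in amygdala-projecting than in ventral cells (log2 difference 0.91 ± 0.15, adjusted p = 0.00408), a call lost without ventral replicate 2 (adjusted p 0.00417 to 0.0510, and 6.74e-05 to 0.0510 over all alternatives). Camk2d was 327, 138 and 315 CPM there, each library above every ventral one, but it missed the threshold (log2 difference 1.69 ± 0.46, adjusted p = 0.0650).

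The projection libraries also held endothelial transcripts, with summed levels from 38.4 to 99.8 CPM in the group labelled from the amygdala, 11.8 to 53.4 CPM in that from the accumbens and 0 to 3.93 CPM in ventral CA1. Kdr made up most of it, and Cldn5, of the same 5 markers, had no read in the projection libraries. Mitochondrial genes took 16.6 to 20.2% of reads in the amygdala group and 15.4 to 16.8% in the accumbens group, with 11.3 to 12.9% in ventral CA1. ERCC spike-ins came to 0.637 to 1.19% of a library in the amygdala group and 0.640 to 1.11% in the accumbens group. In ventral CA1 they came to 2.72 to 8.29%, and every ventral library held fewer reads assigned to genes than any projection library. The part of any of these in the differences from ventral CA1 was not tested. One accumbens-projecting library, replicate 3, held interneuron markers at 579 CPM. Without it the log2 difference from ventral CA1 was 1.87 for Nrgn (adjusted p = 0.000915) and -0.68 for Ppp3ca (adjusted p = 0.0445).

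Postsubiculum-projecting CA1 was compared with dorsal CA1. Mitochondrial genes took 11.3 to 13.4% of reads in the projection libraries and 9.41 to 9.73% in dorsal CA1. Reads in no gene came to 42.7 to 43.6% and 26.8 to 32.7% of a library. The part of either in the differences was not tested. Akap5 and Nrgn were higher in the projection cells, 2 of 10 genes against 10.8% of 12663 genes (5.24% higher and 5.58% lower), and the median log2 difference was 0.18, and 0.023 over all genes tested. Nrgn was 666, 743 and 737 CPM against 463, 457 and 386 CPM, 1.69-fold higher (log2 difference 0.76 ± 0.10, adjusted p = 0.000759), and this held with any 1 library left out. Akap5 was 385, 451 and 385 CPM against 292, 308 and 277 CPM (log2 difference 0.51 ± 0.11, adjusted p = 0.0109). No library overlapped for either gene, but the Akap5 call was lost without any 1 of the 3 dorsal libraries (adjusted p 0.0165 to 0.0614, and 9.91e-05 to 0.381 over all alternatives). The CaMKII and calcineurin genes did not pass here: Camk2b was at 1252 ± 60.9 and 1277 ± 23.1 CPM (log2 difference 0.01 ± 0.073) and Ppp3ca at 4252 ± 59.3 and 4449.7 ± 283 CPM (-0.027 ± 0.061).

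**Figure D4:**
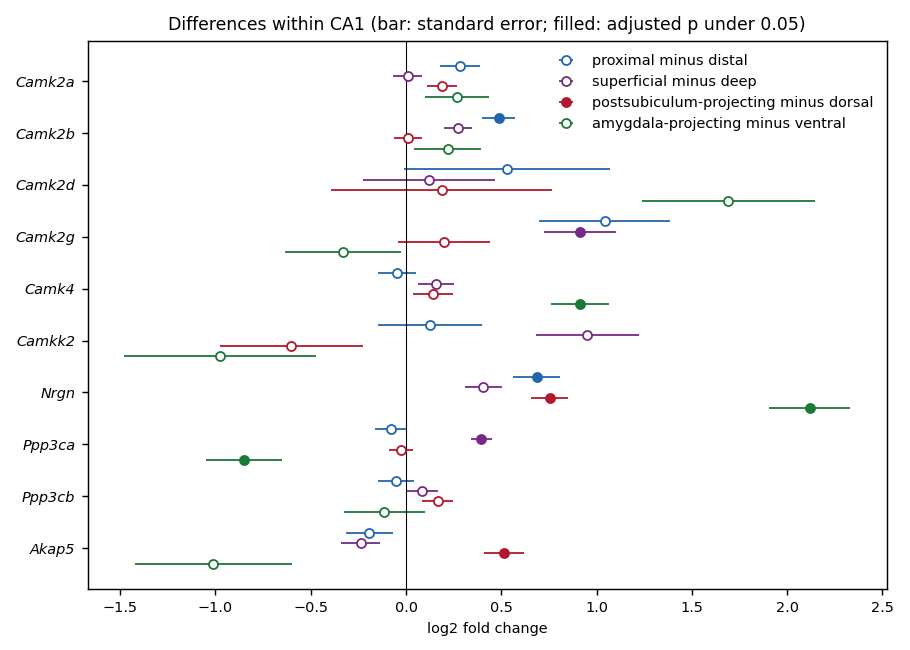
Log2 differences (edgeR; bars are SE) of the 10 genes within CA1: proximal minus distal, superficial minus deep, postsubiculum-projecting minus dorsal, and amygdala-projecting minus ventral; filled points have adjusted p under 0.05. Nrgn is positive in all 4 comparisons, from 0.41 (superficial minus deep, adjusted p 0.0513) to 2.12 (amygdala-projecting minus ventral).

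Regions were compared over dorsal and ventral cells together. CA1 differed from DG in 8 of 10 genes, 5 higher and 3 lower, against 33.1% of 15549 genes (17.4% higher and 15.7% lower). CA3 differed from DG in 5, 3 higher and 2 lower, against 36.5% of 15549 genes (19.6% higher and 16.9% lower), and CA1 from CA3 in 4, 1 higher and 3 lower, against 13.5% of 15549 genes (5.34% higher and 8.15% lower). The 3 comparisons share libraries pairwise. Mitochondrial genes took 9.41 to 12.9% of reads in these CA1 libraries, 14.4 to 17.6% in CA3 and 14.9 to 20.7% in DG. Reads in no gene came to 20.8 to 32.7%, 21.1 to 24.0% and 38.2 to 46.7% of a library. The part of either in the region differences was not tested. Over the members, the median log2 difference was 0.65, and -0.022 over all genes tested for CA1 against DG, 0.22 and -0.0061 for CA3 against DG and 0.034 and -0.0022 for CA1 against CA3.

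Camk4 passed in all 3: CA3 had 5.19-fold and CA1 3.30-fold the level of DG (log2 difference 2.38 ± 0.13, adjusted p = 1.42e-11, and log2 difference 1.72 ± 0.13, adjusted p = 1.74e-09), and CA1 was below CA3 (log2 difference -0.65 ± 0.13, adjusted p = 0.000918). Ppp3cb was also higher in CA1 (1.10 ± 0.08, adjusted p = 1.03e-09) and CA3 (1.27 ± 0.081, adjusted p = 1.12e-10) than in DG. Over both poles, Camk2g and Camk2b were highest in DG. Camk2g was lower in CA1 (-1.10 ± 0.16, adjusted p = 1.7e-05) and in CA3 (-1.40 ± 0.16, adjusted p = 7.82e-07), and Camk2b likewise (-0.57 ± 0.07, adjusted p = 1.63e-06, and -0.60 ± 0.07, adjusted p = 8.06e-07). Camk2b was 2078 CPM in dorsal and 752 CPM in ventral DG. The ventral DG mean was below dorsal CA1 (1277 CPM) and dorsal CA3 (925 CPM) and above ventral CA1 (547 CPM). For Camk2b the ventral DG libraries overlapped those of ventral CA3 (748 CPM).

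Ppp3ca was highest in CA1, above CA3 (log2 difference 0.67 ± 0.067, adjusted p = 2.08e-07) and DG (log2 difference 0.61 ± 0.067, adjusted p = 3.27e-07). Camk2a was lower in CA1 than in CA3 (log2 difference -0.37 ± 0.077, adjusted p = 0.00171) and DG (log2 difference -0.31 ± 0.077, adjusted p = 0.00416). The second of these was lost in 1 fit of all 48 libraries (adjusted p = 0.0700, between 0.000155 and 0.0700 over all alternatives). Akap5 was higher in CA1 than in DG over both poles (log2 difference 0.78 ± 0.16, adjusted p = 0.000522). The difference lay at the dorsal pole (293 against 102 CPM), and the ventral libraries overlapped (265 against 261 CPM). Camk2d was higher in CA3 (log2 difference 2.51 ± 0.32, adjusted p = 2.46e-06) and CA1 (log2 difference 1.53 ± 0.31, adjusted p = 0.000662) than in DG, and lower in CA1 than in CA3 (log2 difference -0.98 ± 0.29, adjusted p = 0.0262). The last call was lost without any of 6 of the 12 libraries (dorsal CA1 replicates 1 or 3, ventral CA1 replicates 1 or 2, dorsal CA3 replicate 2 or ventral CA3 replicate 3; adjusted p 0.00464 to 0.0840, and 0.00464 to 0.0840 over all alternatives). Camkk2 did not pass against DG in CA1 (0.68, adjusted p = 0.191) or CA3 (0.54, adjusted p = 0.292), but without dorsal DG replicate 3 it was higher in both (1.55, adjusted p = 4.02e-05, and 1.41, adjusted p = 0.000100). Nrgn did not pass in any of the 3: over both poles its DG mean lies between 1171 CPM dorsally and 102 CPM ventrally. For Camk2d, which was higher in CA1 than in DG over both poles, ventral DG (47.9 CPM) was above dorsal CA1 (11.7 CPM). At the dorsal pole Camk2d was 11.7 CPM in CA1, 58.3 CPM in CA3 and 2.41 CPM in DG. At the ventral pole it was 80.9, 65.1 and 47.9 CPM. The ventral CA3 libraries overlapped those of ventral CA1, whose mean was the higher, and those of ventral DG.

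The interneurons were set against dorsal CA1 pyramidal cells. Mitochondrial genes took 19.0 to 24.5% of reads in PV, 14.6 to 19.9% in SST and 9.41 to 9.73% in dorsal CA1 libraries. Their part in the differences was not tested. In PV and in SST cells alike, 9 of 10 genes passed, 7 lower and 2 higher, against 29.7% of 14693 genes (16.3% higher and 13.4% lower) for PV and 27.4% of 14693 genes (15.6% higher and 11.9% lower) for SST; both share the dorsal CA1 libraries. The median log2 difference of the members was -2.85 in PV and -2.83 in SST cells, against 0.129 and 0.0924 over all genes.

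Nrgn fell furthest: the PV libraries had 1.24, 2.04 and 1.30 CPM and the SST libraries 16.6, 9.39 and 5.995 CPM against 463, 457 and 386 CPM in dorsal CA1, 287-fold (log2 difference -8.17 ± 0.42, adjusted p = 3.55e-08) and 41.3-fold lower (log2 difference -5.37 ± 0.36, adjusted p = 4.53e-07). Ppp3ca followed (19.3-fold lower in PV and 12.5-fold in SST cells), then Camk2a (9.83-fold and 12.8-fold), Camkk2 (8.28-fold and 7.41-fold), Camk4 (8.19-fold and 7.37-fold), Camk2b (6.33-fold and 6.86-fold) and Ppp3cb (4.35-fold and 3.09-fold). The largest adjusted p among these was 0.00128.

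The minor CaMKII subunits were the genes that rose. Camk2d was 87.5, 55.9 and 60.8 CPM in PV and 59.6, 48.7 and 68.0 CPM in SST cells against 7.74, 17.0 and 10.3 CPM (log2 difference 2.53 ± 0.35, adjusted p = 0.000141, and log2 difference 2.33 ± 0.34, adjusted p = 0.000306). Camk2g was 165, 147 and 168 CPM in PV and 102, 95.1 and 172 CPM in SST cells against 55.0, 84.6 and 48.1 CPM (log2 difference 1.34 ± 0.28, adjusted p = 0.00310, and log2 difference 0.98 ± 0.28, adjusted p = 0.0199). The SST call of Camk2g was lost without dorsal replicate 1 or 3 or SST replicate 3 (adjusted p 0.0131 to 0.10, and 0.00502 to 0.10 over all alternatives). Akap5 did not pass in PV (log2 difference -0.42 ± 0.16, adjusted p = 0.0682) or SST cells (log2 difference -0.43 ± 0.16, adjusted p = 0.0658).

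Between PV and SST cells, 1 of the 10 genes, Nrgn, passed, against 6.15% of 14693 genes (2.62% higher and 3.53% lower). It was 6.96-fold lower in PV cells (log2 difference -2.80 ± 0.34, adjusted p = 0.000487). The SST libraries also held excitatory markers at 22.6 to 72.5 CPM and PV libraries 1.91 to 2.93 CPM. Microglial markers were at 28.0 to 69.2 CPM in SST and 0.203 to 2.76 CPM in PV cells, and oligodendrocyte markers at 34.7 to 663 and 4.996 to 19.1 CPM. The part of these transcripts in the Nrgn difference was not tested. Ppp3ca (log2 difference -0.63, adjusted p = 0.0815) passed without SST replicate 2 (adjusted p = 0.0348), without the filter on low counts (0.0234) and in 1 fit of all 48 libraries (0.00413), and Camk2a (0.38, adjusted p = 0.530) passed without SST replicate 3 (0.89, adjusted p = 0.00580).

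Other genes of the pathway were counted by list. Among calcineurin partners, 4 of the 6 tested passed in dorsal against ventral CA1, 3 higher and 1 lower, where 15.1% of all genes tested passed (7.17% higher and 7.95% lower); the median log2 difference of the list was 0.30, and -0.00747 over all genes. Ppp3r1, the calcineurin B subunit, was 4023 CPM in dorsal and 1860.3 CPM in ventral CA1 (log2 difference 1.05 ± 0.085, adjusted p = 5.66e-08), and 3278 and 1699.6 CPM in CA3 (log2 difference 0.95 ± 0.14, adjusted p = 0.000135). It was lower than in ventral CA1 in amygdala-projecting (1180.3 CPM) and accumbens-projecting cells (1004 CPM; log2 difference -0.86 ± 0.15, adjusted p = 0.00734). In PV and SST cells it was 199 and 498 CPM. Rcan2, a member of the regulator-of-calcineurin family, was 694 CPM in PV and 612 CPM in SST cells, where dorsal CA1 had 0.0642 CPM, and 63.0 and 44.4 CPM in cells projecting to amygdala and accumbens, with 7.79 CPM in ventral CA1. Rcan3 had no read in any dorsal CA1 library and 41.9 and 67.2 CPM in PV and SST cells. Against dorsal CA1, 5 of 8 calcineurin partners passed in each interneuron class, 2 higher and 3 lower, against 29.7% of all genes for PV and 27.4% for SST cells, and the list's median log2 difference was 0.16 and -0.12, against 0.129 and 0.0924 over all genes.

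Among calmodulin genes and small calmodulin-binding proteins, 5 of 6 passed in dorsal against ventral CA1, 2 higher and 3 lower, against 15.1% of all genes, with a median log2 difference of 0.033. Gap43, a growth-cone relative of neurogranin, was 90.8 CPM in dorsal and 485 CPM in ventral CA1 (log2 difference -2.48 ± 0.17, adjusted p = 1.1e-08), the reverse of Nrgn. Between CA1 and DG, 5 of 6 passed, 4 of them higher in CA1, against 33.1% of all genes, with a median of 1.12 (-0.022 over all genes), and Gap43 was 288 against 2.37 CPM. Against dorsal CA1, 6 of 6 passed in PV and 5 of 6 in SST cells, where 29.7% and 27.4% of all genes did, with medians of -1.04 and -0.16.

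Among other CaM kinases and CaMKII inhibitors, 5 of 10 passed in dorsal against ventral CA1, 2 higher and 3 lower, against 15.1% of all genes. Along the same axis 4 of 10 passed in CA3, against 4.97% of all genes, and 4 of 10 in DG, against 19.4%. The median log2 difference of the list was 0.042 in CA1, 0.11 in CA3 and 0.24 in DG (-0.00747, -0.040 and -0.053 over all genes). Camk1d, a CaMKI isoform, was 592 against 323 CPM in CA1, 1386 against 533 CPM in CA3 and 255 against 65.5 CPM in DG, dorsal first. Camk2n1, an endogenous CaMKII inhibitor, averaged 378 CPM in ventral CA1 and rose to 952 CPM in cells projecting to the amygdala and 763 CPM in those projecting to the accumbens (log2 difference 1.34 ± 0.16, adjusted p = 0.000265, and log2 difference 1.04 ± 0.16, adjusted p = 0.00296).

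Among substrates, scaffolds and downstream transcription factors, 7 of the 14 tested passed in dorsal against ventral CA1, 6 higher and 1 lower, against 15.1% of all genes (7.17% higher and 7.95% lower), with a median log2 difference of 0.40. Gria1, an AMPA receptor subunit phosphorylated by CaMKII, was 1782 against 1166 CPM in dorsal and ventral CA1 (log2 difference 0.55 ± 0.086, adjusted p = 0.000127). Prkaca, the catalytic subunit of protein kinase A, was 549.7 and 329 CPM in cells projecting to amygdala and accumbens and 128 CPM in ventral CA1 (log2 difference 2.11 ± 0.23, adjusted p = 9.69e-05, and log2 difference 1.39 ± 0.22, adjusted p = 0.00380). In each interneuron class 8 of 14 passed against dorsal CA1, 7 of them lower, against 29.7% of all genes for PV and 27.4% for SST cells (13.4% and 11.9% lower), with medians of -0.95 and -0.91.

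Among the members themselves, the population means of Camk2b and Ppp3ca were most alike (r = 0.897, Pearson on log2(CPM + 1) over the 16 populations, which share libraries and depth between genes), and those of Camk2g and Ppp3cb least (r = -0.71). Camk2d ran opposite to Camk2b (r = -0.661). Over 14390 named genes, the pattern most like Nrgn was that of Neurod2 (r = 0.981), then Egr3 (r = 0.965). The closest to Camk2b was Camta2 (r = 0.968), to Ppp3ca Ncan (r = 0.975), to Ppp3cb Gnaq (r = 0.958) and to Camk4 Hs3st4 (r = 0.962). The closest genes to Akap5, Senp7 (r = 0.918), Camk2d, Lsm12 (r = 0.882), and Camk2g, Rps6ka2 (r = 0.874), were less alike, and Camkk2 had Sort1 (r = 0.943). These are descriptions over 16 means, which include the interneurons. Camk2b, Ppp3ca and Nrgn had their lowest means there, and r over the 14 excitatory populations alone was not computed. Neurod2 is also among the excitatory markers summed above.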

How the data were processed

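The analysis began from the deposited table of whole-number read counts per gene and from the deposited FPKM values, both made by the authors from sorted-cell RNA-seq. TopHat2 2.0.6, Cuffdiff 2.1.1, HTSeq, DESeq2 and the builds NCBIM37 and mm9 are named in the submitters' processing notes, with no role given. Summary lines and 92 ERCC spike-ins were left out: reads in no gene came to 20.4 to 46.7% and ambiguous reads to 1.20 to 2.02% of a library, and spike-ins to between 0.0154 and 8.29%. CPM, the deposited counts scaled by library size and TMM over all 48 libraries, was computed here, as were shares of summed FPKM. The deposited FPKM of Akap5 had no usable value in 31 of the 48 libraries, and the Akap5 results here rest on counts alone.

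Groups came from the sample labels. Column numbers in the count table do not match the replicate numbers in the titles, so a column was assigned to its population only, and replicate numbers here are those of the columns.

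Each comparison was fitted with edgeR 4.0.16 (R 4.3.3, quasi-likelihood F test, TMM scaling, filterByExpr, robust dispersion) over the groups concerned, with Benjamini-Hochberg adjustment over all genes tested and a threshold of 0.05. The fits were tested on simulated data. Alternatives were RLE scaling, no filter, a replicate block, 1 fit of all 48 libraries, DESeq2 1.42.0 and each library left out in turn.

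All 10 members are named. Of each pathway list, at most the 2 called genes with the smallest p per direction and comparison could be named. Likeness is Pearson's r of population mean log2(CPM + 1) among 14390 named genes that passed the filter. The gene most like Camk2a and the summed CA1 marker level are not reported here. The members and lists were chosen with earlier results of these data known.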

Additional observations from a re-analysis of the deposited data

Results flagged for a closer look

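The long-axis difference of 6 of the 10 genes differed between regions, by a test of the difference itself in one edgeR fit of the dorsal and ventral libraries of CA1, CA3 and DG. It was 3 of 10 against CA3, where 3.52% of all genes passed, and 4 of 10 against DG, where 9.71% did, with Nrgn in both. Each value is the dorsal-minus-ventral log2 difference in CA1 minus that in the other region, ± SE, with the Benjamini-Hochberg adjusted p. Compared with CA3, the value was 0.87 ± 0.14 for Camk2b (adjusted p = 0.000469), -2.67 ± 0.59 for Camk2d (adjusted p = 0.00940) and 1.09 ± 0.27 for Nrgn (adjusted p = 0.0250). In CA1 every dorsal library of Camk2b and Nrgn lay above every ventral one, and every dorsal library of Camk2d lay below. In CA3 the Nrgn and Camk2d libraries overlapped. Those of Camk2b did not, with a smaller difference in the same direction as in CA1 (0.31 in edgeR, adjusted p = 0.0793).

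Compared with DG, the value was -2.51 ± 0.28 for Nrgn (adjusted p = 5.1e-06), 0.74 ± 0.13 for Ppp3ca (adjusted p = 0.00121), 0.94 ± 0.16 for Ppp3cb (adjusted p = 0.000705) and 1.44 ± 0.31 for Akap5 (adjusted p = 0.00501). For Nrgn and Ppp3ca dorsal cells were higher in both regions, by a larger amount in DG for Nrgn and in CA1 for Ppp3ca. Akap5 and Ppp3cb had lower means in dorsal than in ventral DG, and of these Akap5 passed the test within DG. The Camk2d difference from CA3 was lost without ventral CA1 replicate 3 (-2.08, adjusted p = 0.0552, between 0.000178 and 0.0552 over all alternatives), and the Nrgn difference from CA3 without any of 8 of 12 libraries.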

How the results depend on the processing

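None of the 82 member calls in the 19 pairwise and interaction comparisons reversed in direction under any alternative run. RLE scaling, no filter and DESeq2 kept all 82 calls, 1 fit of all 48 libraries kept 69, and 17 calls were lost when some library was left out. In the fit of all 48 libraries the number of genes called was 2 for dorsal against intermediate CA1, 4 for intermediate against ventral CA1, 1 for proximal against distal, 0 for superficial against deep, 5 for amygdala-projecting against ventral, 1 for postsubiculum-projecting against dorsal, 2 for dorsal against ventral CA3 and 2 for PV against SST. Without the filter it was 5 for superficial against deep, 5 for amygdala-projecting against ventral and 2 for PV against SST, and with DESeq2 5 for superficial against deep. Camk2d in amygdala-projecting against ventral CA1 passed in each of these 3 (adjusted p = 0.00408 with DESeq2). The cause of these changes was not tested.

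With each library left out in turn, the number called was 2 to 4 for dorsal against intermediate CA1, 0 to 1 for proximal against distal, 1 to 3 for superficial against deep, 1 to 3 for amygdala-projecting and 1 to 2 for accumbens-projecting against ventral, 1 to 2 for postsubiculum-projecting against dorsal, 2 to 4 for dorsal against ventral CA3, 2 to 3 for CA1 against CA3 gradients, 4 to 5 for CA1 against DG gradients, 3 to 5 for CA1 against CA3 and 1 to 2 for PV against SST. Leaving out the 2 libraries with most interneuron marker reads, chosen after seeing the data, gave 1 for superficial against deep, and leaving out 4 such libraries kept all 10 genes in the test over all populations. The number of populations where Camk2a was over 50% of the CaMKII FPKM was 8 to 10. Some values that had not passed did so with 1 library left out. Without dorsal DG replicate 3 these included Akap5 in CA3 against DG (0.442, adjusted p = 0.0345). The rest without that library were Camkk2 in dorsal against ventral DG (-1.27, against 0.45 with it), in CA1 and CA3 against DG and in the CA1 against DG gradient (1.91, adjusted p = 0.0125). Without 1 of the other libraries they were Camkk2 in dorsal against ventral CA1 and in superficial against deep, Camk2d in amygdala-projecting against ventral CA1 and in the CA1 against DG gradient, Akap5 in CA1 against CA3, CA3 against DG and SST against dorsal CA1, Ppp3cb in dorsal against ventral DG, Camk2a in the CA1 against DG gradient and in PV against SST, and Ppp3ca in PV against SST.

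Same-numbered libraries showed little shared deviation (81 pairs, correlations from -0.123 to 0.193, 4 over 0.1). This gave no sign of pairing by number, but low correlations cannot show that the libraries are unpaired. With a replicate block 1 call was lost, Camk2g in dorsal against ventral CA3 (-0.78, adjusted p = 0.0624), and Nrgn in superficial against deep (adjusted p = 0.0485) and Camk2d in amygdala-projecting against ventral CA1 (adjusted p = 0.0188) passed. Some levels rest on few reads: Camk2d had 6, 21 and 26 reads in the dorsal DG libraries, and Nrgn 30, 54 and 32 in the PV libraries.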
